A study of Mus musculus with 71 samples.

Results

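Pro-B cells of *Pax5* ΔCRD1,2/- mice were compared directly with pro-B cells of *Pax5* ΔCRD1/- mice by RNA sequencing. Both genotypes lack the C-terminal regulatory domain CRD1 of Pax5 and carry a single *Pax5* allele over a null allele, written "-", so that the comparison asks which transcripts differ when CRD2 is removed as well. It rested on 4 of the 48 RNA-seq samples among the 71 samples of the series, 2 for each genotype. The genes described were all those above 1 TPM (a read count scaled by gene length and library size) in at least 1 of these 4 libraries, which held for 12332 of the 25579 genes listed.

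All cells came from bone marrow of C57BL/6 mice and were sorted directly, without culture. The 2 genotypes passed through different gates. *Pax5* ΔCRD1/- cells were sorted from B220+ Kit+ cells without CD2, IgM and IgD. *Pax5* ΔCRD1,2/- cells were sorted as Lin- Ly6D+ Kit-high B220+ cells. The text calls these the CD2-negative and the Ly6D gate. Genotype and gate therefore cannot be told apart in any value below, and differences in the gate antigens themselves can be set by the sort.

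Other genotypes stand beside these values as reference. They were 2 libraries each of *Pax5* +/+ cells, which have both *Pax5* copies, and of *Pax5* ΔCRD2/- cells, both from the CD2-negative gate and all read at 100 nt like the 4 libraries above. Homozygous ΔCRD1 cells, read at 50 nt, and homozygous ΔCRD1,2 cells, read at 100 nt, had 2 libraries each and were sorted through the CD2-negative and the Ly6D gate, and 3 further +/+ libraries were read at 50 nt. Pax5-deleted progenitors, referred to as *Pax5* Δ/Δ, came from Vav-Cre *Pax5* fl/fl mice, in which Cre acts throughout the blood lineages. Their 2 libraries were read at 50 nt in another run and were sorted through the Ly6D gate.

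Pax5 is the transcription factor that commits lymphoid progenitors to the B cell lineage. It binds DNA through its paired domain, activates genes of B cell receptor signalling such as *Blnk*, and represses genes of other lineages such as *Flt3*. Its C-terminal part holds the transactivation and inhibitory sequences through which cofactors act, and CRD1 and CRD2 divide that part.

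The alleles were made by genome editing in zygotes, the ΔCRD1,2 allele by editing exon 10 of the ΔCRD1 allele, and the guides are shown because they define what the 2 genotypes lack. The gene lies on the minus strand of GRCm38, chr4:44524748-44710694. In the lines that follow, the 20 guide bases are in lower case and the adjoining 3-base PAM of the genome is in capitals.
sgRNA-3 (intron 7, chr4:44570468-44570487, minus strand): agaaccagtcagaagcaacgGGG
sgRNA-4 (intron 9, chr4:44537066-44537085, plus strand): gacatcattaatcaatcactGGG
sgRNA-5 (exon 10, chr4:44531557-44531576, plus strand): tgcagggctgtaatagtatgGGG
The guides sgRNA-3 and sgRNA-4 flank exons 8 and 9, with 33388 bases between their cut sites. These exons hold 102 and 87 coding bases, together 63 codons with no remainder, so the reading frame runs on from exon 7 into exon 10 in the ΔCRD1 allele. The guide sgRNA-5 cuts in the coding part of exon 10, the last exon, which encodes CRD2.

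The repair template used at exon 10 replaced 3 bases by 7, shown in capitals in the sense of the *Pax5* transcript, with 30 bases of each sequence printed.
Wild type (chr4:44531552-44531581, minus strand): ctccccataCTAttacagccctgcagcccg
Repair template: ctccccataGTAAGCTttacagccctgcag
The change placed 2 adjacent in-frame stop codons, TAG and TAA, after 8 coding bases of exon 10, and added 1 HindIII site that the wild-type window lacks. By this design CRD2 is lost through truncation in the last coding exon.

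The 4 libraries held 31776959 to 40685256 reads as recovered from the TPM values. Their replicates spread unequally: the SD of the log2 difference between replicates was 0.586 for ΔCRD1/- and 0.786 for ΔCRD1,2/-. The 12 pro-B markers summed to 19225 and 19978 TPM in the ΔCRD1/- libraries and to 15855 and 16169 TPM in the ΔCRD1,2/- libraries. The 18 granulocyte and macrophage markers summed to 298 and 510 TPM against 1862 and 1191 TPM. Of the 17 tested, none passed the test as higher and 1 as lower, while 12 had a difference above 0 and 5 below. Among the reference libraries these markers reached a sum of 16673 TPM in ΔCRD2/- replicate 1 and 7063 TPM in +/+ replicate 4. The 9 T cell markers in the tables summed to 143 and 159 TPM against 252 and 239 TPM, and 1 of the 4 tested rose. Most of that sum was *Lck*, a kinase gene, while *Cd3e*, *Cd3d*, *Cd3g*, *Cd4* and *Cd8a* were at most at 1.24 TPM in the 4 libraries. The part of such cells in the differences was not tested, and in sorted bulk samples fewer cells of a type and less RNA per cell cannot be told apart.

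*Pax5* transcripts were abundant in both genotypes. They stood at 451 and 410 TPM in ΔCRD1/- cells and at 416 and 546 TPM in ΔCRD1,2/- cells. The libraries of the 2 genotypes overlapped, and the difference of 0.15 ± 0.17 (SE) on the log2 scale did not pass the test (adjusted p = 0.684). *Pax5* stood at 342 and 360 TPM in +/+ cells, at 241 and 304 TPM in ΔCRD2/- cells and at 1609 and 1697 TPM in *Pax5* Δ/Δ progenitors. Counts per gene do not check the alleles, because single exons were not counted.

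Of the 12332 genes, 71 differed more than 3-fold between ΔCRD1,2/- and ΔCRD1/- cells with an adjusted p below 0.05 and averaged over 5 TPM in either genotype. This is a background of 0.576%, with 23 genes higher (0.187%) and 48 lower (0.389%) in ΔCRD1,2/- cells. The 4 libraries of all 71 genes separated by genotype, as did those of 53.3% of all genes tested. The adjusted p alone was passed by 289 genes (2.34%), of which 64 were higher (0.519%) and 225 lower (1.82%), 36 of them immunoglobulin heavy chain variable segments, and 2027 genes (16.4%) had an unadjusted p below 0.05. The median log2 difference of all genes was -0.09. Centring each library on its median shifted this by 0.102 and changed the split to 29 higher and 37 lower genes, while edgeR on the recovered reads gave 40 higher and 41 lower and DESeq2 gave 50 higher and 41 lower. Without either ΔCRD1/- library the count was 11, and without replicates 1 and 2 of ΔCRD1,2/- it was 38 and 62.

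**Figure D1:**
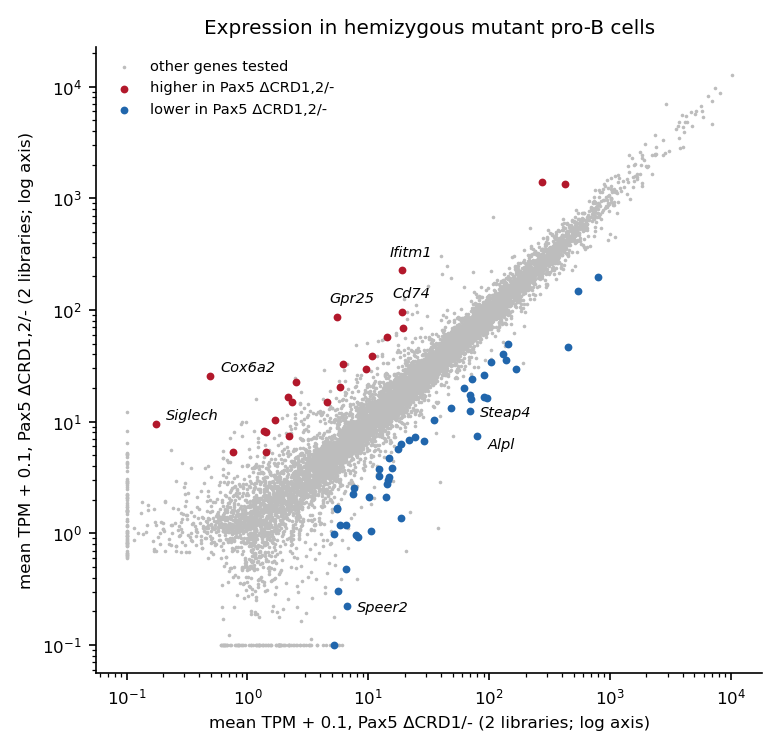
Mean TPM + 0.1 of each gene tested in ΔCRD1/- (horizontal) and ΔCRD1,2/- pro-B cells (vertical), 2 libraries each, on log axes. The 23 genes higher and 48 genes lower in ΔCRD1,2/- cells are coloured, and the other genes tested are grey.

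The genes with the largest falls ranged from highly expressed ones such as *Atp1b1* to genes of a few TPM. *Alpl*, the tissue-nonspecific alkaline phosphatase, stood at 82.8 and 75.5 TPM against 6.94 and 7.63 TPM. It fell 10.7-fold (log2 difference -3.42 ± 0.15, SE, adjusted p = 0.000106) and was at 147 and 128 TPM in +/+ cells. *Cnn1*, the actin-binding calponin 1, went from 16.5 and 20.8 TPM to 1.45 and 1.07 TPM, a 13.8-fold lower level (log2 difference -3.79 ± 0.22, adjusted p = 0.000153). Its levels in ΔCRD1/- cells lay near the 24.1 and 19.7 TPM of +/+ cells, whereas *Pax5* Δ/Δ progenitors had 0 and 0.263 TPM.

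*Sertad4*, which encodes a SERTA domain protein, stood at 5.35 and 5.71 TPM in ΔCRD1/- and at 0.262 and 0.148 TPM in ΔCRD1,2/- cells (18.8-fold lower, log2 difference -4.23 ± 0.26, adjusted p = 0.0002). In +/+ cells it was at 30.6 and 39.0 TPM and in ΔCRD2/- cells at 15.9 and 15.6 TPM. *Mmrn1*, the secreted multimerin 1, had 55.9 and 73.0 TPM in +/+, 65.5 and 51.7 TPM in ΔCRD2/-, 11.0 and 9.75 TPM in ΔCRD1/- and 1.00 and 0.891 TPM in ΔCRD1,2/- cells (log2 difference -3.32 ± 0.20, adjusted p = 0.0002). Both genes were thus below the +/+ level already in ΔCRD1/- cells and lower again in ΔCRD1,2/- cells. *Speer2* stood at 8.33 and 4.78 TPM against 0.245 and 0 TPM, which were 126 and 73 reads against 4 and 0 reads. The ratio of its summed reads per library size was 55.4, with an exact 95% interval of 21.3 to 205 that covers counting error only.

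*Atp1b1*, the beta subunit of the sodium pump, stood at 167 TPM in both ΔCRD1/- libraries and at 33.3 and 25.6 TPM in the ΔCRD1,2/- libraries. It fell 5.70-fold (log2 difference -2.51 ± 0.15, adjusted p = 0.000153), to a level below the 50.01 and 90.8 TPM of *Pax5* Δ/Δ progenitors. *Steap4*, a metalloreductase, stood at 73.2 and 64.5 TPM against 10.1 and 14.4 TPM (log2 difference -2.50 ± 0.20, adjusted p = 0.00073), beside 65.9 and 84.2 TPM in the +/+ libraries. *Smtnl2*, a smoothelin-like protein, was at 89.7 and 101.0 TPM against 9.99 and 22.4 TPM. The transcription factor gene *Maf* was at 14 TPM in both ΔCRD1/- libraries and at 1.67 and 2.32 TPM in the ΔCRD1,2/- libraries. The receptor tyrosine kinase gene *Ret* was at 7.66 and 8.51 TPM against 0.522 and 1.13 TPM. These 3 genes fell by 2.66 ± 0.32, 2.77 ± 0.24 and 3.23 ± 0.41 on the log2 scale, with adjusted p = 0.00613, 0.00115 and 0.00761.

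The remaining genes among the 14 with the largest falls were expressed at low levels. *Amotl1*, an angiomotin family member, stood at 6.01 and 6.92 TPM against 0.153 and 0.605 TPM. *Rpl3l*, a muscle form of ribosomal protein L3, stood at 7.69 and 7.85 TPM against 1.5 and 0.245 TPM. *Emcn*, the sialomucin endomucin, stood at 6.12 and 6.87 TPM against 1.31 and 0.841 TPM. Their adjusted p were 0.00763, 0.0284 and 0.0187, and the 2 genotypes did not overlap in any of them.

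**Figure D2:**
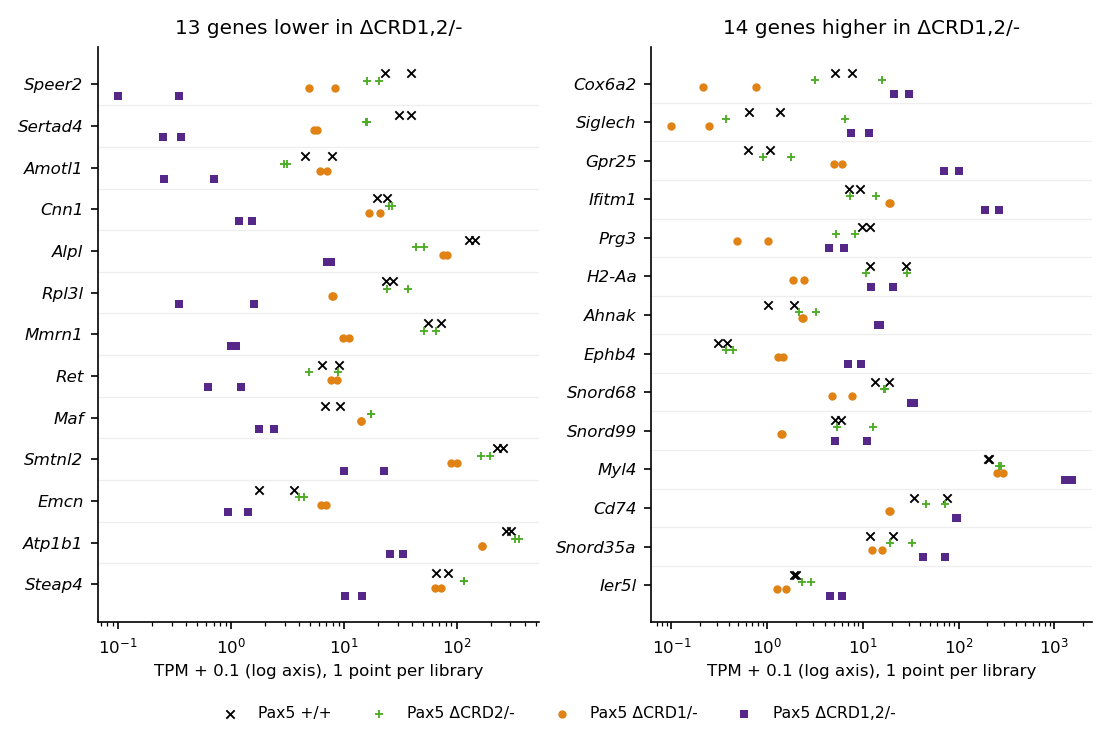
TPM + 0.1 in single libraries (log axis) for 13 of the 14 genes with the largest fall and the 14 with the largest rise in ΔCRD1,2/- against ΔCRD1/- pro-B cells, with +/+ and ΔCRD2/- libraries beside them. For *Alpl* the ΔCRD1,2/- points lie at 6.94 and 7.63 TPM, below the 6 libraries of the other genotypes, whereas for *Prg3* and *H2-Aa* the ΔCRD1/- points stand alone at the low end.

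The largest rises were also spread over a wide range of levels. *Gpr25*, an orphan G protein-coupled receptor gene, stood at 5.92 and 4.93 TPM in ΔCRD1/- and at 70.5 and 101.0 TPM in ΔCRD1,2/- cells. It rose 15.3-fold (log2 difference 3.94 ± 0.40, adjusted p = 0.00305), with 0.534 and 0.967 TPM in +/+ cells and 253 and 278 TPM in *Pax5* Δ/Δ progenitors. *Ifitm1*, an interferon-induced transmembrane protein gene also expressed in stem cells, stood at 18.5 and 19.3 TPM against 268 and 189 TPM. Its 11.9-fold rise (log2 difference 3.57 ± 0.30, adjusted p = 0.00115) also left it below the 654 and 422 TPM of the progenitors. *Myl4*, a myosin light chain gene, had the highest mean of the 23 genes that rose in ΔCRD1,2/- cells, at 253 and 291 TPM against 1532 and 1282 TPM (5.17-fold, log2 difference 2.37 ± 0.13, adjusted p = 0.000153). A second light chain gene, *Myl10*, was the more abundant in ΔCRD1/- cells and rose from 420 and 430 TPM to 1664 and 1045 TPM (log2 difference 1.63 ± 0.20, adjusted p = 0.00636). For *Myl4* the +/+ libraries, at 210 and 202 TPM, lay near the ΔCRD1/- level, whereas for *Myl10* they were lower, at 94.4 and 96.9 TPM.

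*Cox6a2*, a cytochrome oxidase subunit expressed in muscle and plasmacytoid dendritic cells, stood at 0.112 and 0.667 TPM against 30.1 and 21.1 TPM. These values were 1 and 6 reads against 290 and 249 reads, a ratio per library size of 69.1 (exact 95% interval 33.3 to 173, counting error only). The ΔCRD1/- level was also below the 5.01 and 7.67 TPM of +/+ cells and the 15.6 and 3.04 TPM of ΔCRD2/- cells. *Siglech*, a lectin of plasmacytoid dendritic cells, stood at 0 and 0.148 TPM against 11.4 and 7.33 TPM, or 0 and 5 reads against 415 and 326 reads. Its adjusted p was 0.0473, which stayed below the threshold in 6 of 16 alternative settings and ranged from 0.00226 to 0.419 over them. The 13 plasmacytoid dendritic cell markers, which include both genes, summed to 565 and 555 TPM against 639 and 681 TPM, and 2 of the 11 tested rose. These sums are carried by a few abundant genes such as *Spib*, whereas the median marker was at 0.943 TPM in ΔCRD1/- and 9.39 TPM in ΔCRD1,2/- cells, and 9 of the 11 tested had a difference above 0 (median log2 difference 0.66). Their part in the rise of *Cox6a2* and *Siglech* was not tested.

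For some genes the ΔCRD1/- level was the lowest of the 4 genotypes of the 100-nt run. *Cd74*, the invariant chain of MHC class II, rose from 19.3 and 18.8 TPM to 95.6 and 94.5 TPM (log2 difference 2.31 ± 0.35, adjusted p = 0.0148), with 34.3 and 76.3 TPM in +/+ cells. *H2-Aa*, an MHC class II chain, rose from 1.77 and 2.34 TPM to 20.6 and 12.1 TPM (log2 difference 2.90 ± 0.54, adjusted p = 0.0349), and the +/+ libraries held 11.7 and 28.1 TPM. *Prg3*, an eosinophil granule protein gene, rose from 0.390 and 0.926 TPM to 4.33 and 6.24 TPM (log2 difference 2.90 ± 0.42, adjusted p = 0.012) against 9.59 and 11.8 TPM in +/+ cells. The 7 basophil, mast cell and eosinophil markers summed to 16.2 and 45.0 TPM in ΔCRD1/- cells and to 107 and 150 TPM in ΔCRD1,2/- cells. None of the 4 tested passed, 3 of them had a difference above 0, and the median marker stood at 1.06 against 0.921 TPM. Conventional dendritic cell markers summed to 38.9 and 40.9 TPM against 76.0 and 95.3 TPM. Most of that sum was *Ccr7*, at 38.7 and 40.5 TPM against 69.8 and 92.6 TPM, while the median marker stood at 0.0414 against 0.453 TPM. The part of such cells in *Cd74*, *H2-Aa* and *Prg3* was not tested.

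Of the other genes with the largest rises, *Ahnak*, a large scaffold protein gene, went from 2.29 and 2.23 TPM to 14.4 and 15.2 TPM. *Ephb4*, an ephrin receptor gene, went from 1.19 and 1.36 TPM to 6.81 and 9.56 TPM, and *Ier5l* from 1.47 and 1.17 TPM to 4.48 and 5.91 TPM. Their adjusted p were 0.0108, 0.0284 and 0.026. The small nucleolar RNA entries *Snord68*, *Snord99* and *Snord35a* also passed all thresholds, the last from 12.5 and 15.6 TPM to 72.3 and 42 TPM. *Snord68* and *Snord99* rested on 3 and 5 against 24 and 27 reads and on 1 and 1 against 9 and 5 reads, and such short entries lie inside other genes. Both lost their call with edgeR and with DESeq2 on the recovered reads, where adjusted p reached 0.205 and 0.532. The 3 entries passed in 11, 3 and 9 of 16 alternative settings.

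Around the fold limit the genes formed a continuum. The genes just inside were *Irs2*, *Scn4b* and *Plxdc1* at 3.012-, 3.027- and 3.047-fold. *Gas6*, *Robo4* and *Sapcd1* at 2.997-, 2.968- and 2.948-fold were just outside.

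The lists of genes by role were read against the 2.34% of all genes that passed the adjusted p, with 0.519% higher and 1.82% lower, and against the median log2 difference of -0.09. Of 20 lists of pathway and lineage genes, 1 held the commitment genes that the study named on these libraries. The genes *Gpr25*, *Ffar2*, *Steap4*, *Asb2* and *Tnfrsf19* were counted through that list alone and are not independent evidence. Among others, the study also showed *Lef1*, *Tcf3*, *Id3*, *Nedd9*, *Fcrla*, *Bcl2l1*, *Arntl*, *Lat2*, *Ifitm1* and *Flt3* as examples from these libraries. Their calls in the other lists are not independent of the study either. In the 20 lists, together with the list of gate antigens, 40 distinct genes passed, 16 higher and 24 lower. This count was 1 without either ΔCRD1/- library and 9 and 22 without replicates 1 and 2 of ΔCRD1,2/-.

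**Figure D3:**
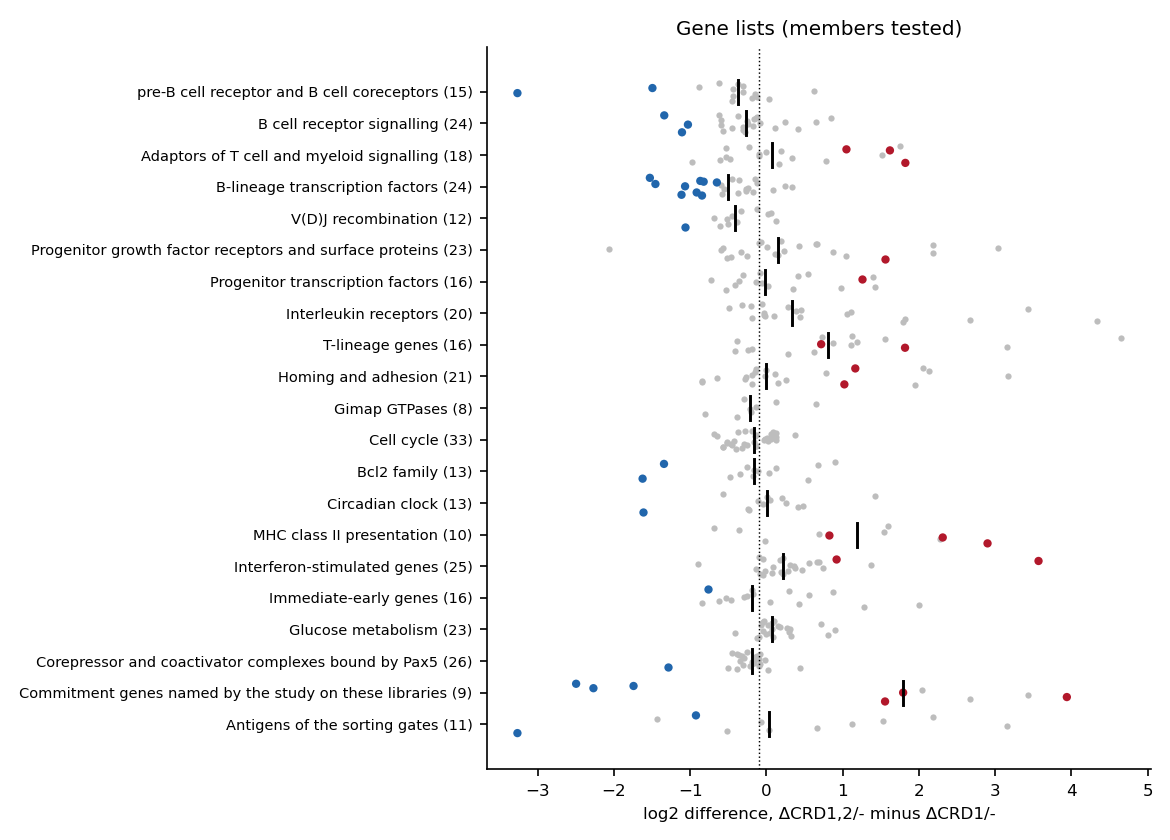
Log2 difference of ΔCRD1,2/- against ΔCRD1/- pro-B cells for every tested member of each list (number tested in brackets), with members past the adjusted p coloured red for higher and blue for lower, the list median as a bar and the median of all genes as a dotted line. The B-lineage transcription factors, with 9 of 24 lower, sit left of the dotted line, and the MHC class II genes, with 3 of 10 higher, mostly right of it.

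The list of B-lineage transcription factors, which also holds an inhibitor and factors of wider use, gave the largest count among the lists. Of 24 tested, 9 fell and none rose, with a median log2 difference of -0.51. *Id3*, an inhibitor of E proteins, stood at 130 and 141 TPM against 52.7 and 41.5 TPM (log2 difference -1.53 ± 0.19, adjusted p = 0.00707). *Lef1*, a factor of Wnt signalling expressed in pro-B cells, stood at 181 and 207 TPM against 56.4 and 88.1 TPM (log2 difference -1.46 ± 0.20, adjusted p = 0.011). *Tcf3*, which encodes the E proteins E12 and E47, stood at 468 and 495 TPM against 186 and 265 TPM (log2 difference -1.11 ± 0.17, adjusted p = 0.0176). *Irf4*, which acts with *Irf8* in pre-B cells, stood at 79.9 and 75.2 TPM against 36.3 and 37.6 TPM (adjusted p = 0.00679). *Ebf1*, the factor that specifies the lineage together with E proteins, stood at 293 and 312 TPM against 159 and 178 TPM (adjusted p = 0.0447).

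*Foxo1*, *Ets1*, *Erg* and *Myb* were the other 4 that fell, by 0.92 ± 0.18, 0.87 ± 0.15, 0.82 ± 0.15 and 0.65 ± 0.12 on the log2 scale. Other members gave no difference past the test. *Ikzf1*, which encodes Ikaros, was at 242 and 234 TPM against 204 and 218 TPM, and *Spi1*, which encodes PU.1, at 206 and 220 TPM against 201 and 253 TPM. The largest fall in the list was 2.89-fold, that of *Id3*.

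The pre-B cell receptor signals at the step from the pro-B to the pre-B cell. Of 15 genes for it and for B cell coreceptors, 2 fell, *Fcrla* among them, and none rose, with a median of -0.37. The surrogate light chain genes *Vpreb1* and *Igll1* stood at 2828 and 2712 against 2594 and 2279 TPM and at 5614 and 6251 against 5344 and 5312 TPM. *Cd79a*, the signalling chain of the receptor, stood at 2261 and 2232 against 1532 and 1756 TPM, a log2 difference of -0.45 ± 0.15 that did not pass (adjusted p = 0.201). *Fcrla*, an intracellular Fc receptor-like protein gene, stood at 7.79 and 6.79 TPM in ΔCRD1/- and at 3.25 and 1.94 TPM in ΔCRD1,2/- cells, far under the 115 and 146 TPM of +/+ cells.

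Among signalling proteins of the B cell receptor, 3 of 24 fell and none rose. *Blnk*, the adaptor that links Syk to phospholipase C, stood at 971 and 1030 TPM against 374 and 578 TPM (log2 difference -1.11, adjusted p = 0.032). *Nedd9*, a docking protein, stood at 121 and 140 TPM against 48.6 and 54.3 TPM (log2 difference -1.34, adjusted p = 0.00305). *Pik3ap1*, the PI3 kinase adaptor BCAP, also fell (log2 difference -1.03, adjusted p = 0.0106). Adaptors used in T and myeloid cells gave the opposite count, 3 of 18 higher and none lower. *Lat2*, a linker for activation, rose from 18.9 and 19.98 TPM to 77.2 and 61.4 TPM (log2 difference 1.82 ± 0.25, adjusted p = 0.0102). *Sla2*, a Src-like adaptor gene, rose from 9.13 and 9.86 TPM to 32.8 and 26.3 TPM (adjusted p = 0.00819), and *Dok2* from 8.87 and 10.5 TPM to 21.6 and 18.6 TPM (adjusted p = 0.0326). The adaptor gene *Lat* stood at 81.9 and 87.4 against 91.6 and 97.8 TPM and did not pass.

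Of 12 genes of V(D)J recombination, 1 fell. *Rag1*, which encodes the catalytic subunit of the recombinase, stood at 544 and 489 TPM against 250 and 244 TPM (log2 difference -1.06 ± 0.12, adjusted p = 0.00395). Its partner *Rag2* stood at 61.2 and 54.4 TPM against 47.0 and 30.2 TPM, and *Dntt*, the terminal transferase, at 3918 and 4187 against 2689 and 3031 TPM, neither past the test (adjusted p = 0.266 and 0.117).

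Genes of progenitors and of the T lineage moved in few members. *Flt3*, the cytokine receptor of lymphoid progenitors, rose from 77.8 and 69.8 TPM to 250 and 188 TPM (log2 difference 1.56 ± 0.20, adjusted p = 0.00756) and was the only one of 23 progenitor receptors and surface proteins to pass. It stood at 15.7 and 21.2 TPM in +/+ cells. *Il7r*, the receptor that pro-B cells need to grow, was at 374 and 355 TPM against 270 and 256 TPM and did not pass (adjusted p = 0.256). Of 16 progenitor transcription factors, *Gfi1b* rose from 4.71 and 5.79 TPM to 12.3 and 12.9 TPM (adjusted p = 0.0161). The median of that list was -0.02, which the shift of 0.102 under median centring turns positive.

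Of 16 T-lineage genes tested, 2 rose and none fell, with a median of 0.80. *Thy1*, a surface glycoprotein, rose from 9.59 and 11.8 TPM to 45.6 and 31.2 TPM (log2 difference 1.82 ± 0.24, adjusted p = 0.00833), which brought it to the 43.9 and 32.2 TPM of +/+ cells. *Lck*, a Src-family kinase, rose from 137 and 155 TPM to 245 and 234 TPM (adjusted p = 0.0322). *Notch1* stood at 98.9 and 96.4 TPM against 100.05 and 142 TPM, and the T cell genes *Gata3* and *Bcl11b* stayed below 1 TPM in all 4 libraries. The list of interleukin receptors gave no call in 20 genes. The smallest adjusted p were those of *Il2ra*, at 17.9 and 16.0 against 42.2 and 82.7 TPM (adjusted p = 0.0616), and *Il18r1*, at 0.108 and 0.153 against 8.69 and 2.35 TPM (adjusted p = 0.0683). The 2 ΔCRD1,2/- libraries differed from each other several-fold in *Il18r1*.

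MHC class II genes had a median of 1.18, with 3 of 10 higher and none lower. Besides *Cd74* and *H2-Aa*, *H2-DMa*, which helps to load peptides, rose from 25.5 and 25.8 TPM to 50.9 and 40.7 TPM (adjusted p = 0.0324). *H2-Ab1*, the partner chain of *H2-Aa*, stood at 108 and 112 TPM against 113 and 105 TPM, with no difference past the test. Of 25 interferon-stimulated genes, *Ifitm1* and *Ifitm3* rose, the latter from 147 and 175 TPM to 300.0 and 307 TPM (log2 difference 0.92 ± 0.13, adjusted p = 0.0124). *Ifitm2*, a neighbour in the same family, was at 489 and 469 TPM against 538 and 547 TPM, and genes such as *Irf7* and *Isg15* did not pass.

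Of 13 Bcl2 family genes, 2 fell. *Bcl2l1*, which encodes the survival protein Bcl-xL, stood at 57.5 and 65.0 TPM against 16.8 and 23.2 TPM (log2 difference -1.62 ± 0.19, adjusted p = 0.00533). *Bmf*, a BH3-only death gene of the same family, also fell (log2 difference -1.34, adjusted p = 0.0169). In the circadian list, 1 of 13 fell, *Arntl*, the partner of CLOCK, from 96.3 and 111 TPM to 30.7 and 36.9 TPM (log2 difference -1.62 ± 0.16, adjusted p = 0.00247). Of 26 genes for corepressor and coactivator complexes bound by Pax5, 1 fell, *Smarca4*, the BRG1 ATPase, from 1018 and 1169 TPM to 384 and 518 TPM (log2 difference -1.29, adjusted p = 0.0135). The other 25 gave no call. By the study, the BAF complex, to which BRG1 belongs, bound Pax5 through CRD1, which both genotypes compared here lack.

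In the other lists, 2 of 21 homing and adhesion genes rose, *Cd9* and *Ccr7*, the latter a chemokine receptor gene at 38.7 and 40.5 TPM against 69.8 and 92.6 TPM (adjusted p = 0.0177). The immediate-early gene *Btg2* was 1 of 16 and fell (log2 difference -0.76, adjusted p = 0.0296). None of 8 Gimap GTPases, 33 cell cycle genes and 23 genes of glucose metabolism passed in either direction. Among the 9 genes that the study itself named for commitment on these libraries, 3 rose and 3 fell, which is not independent evidence of a direction. Besides *Gpr25*, *Flt3* and *Steap4* these were *Ffar2*, a receptor of short-chain fatty acids that rose from 5.86 and 5.70 TPM to 20.3 and 20.2 TPM, *Asb2*, which fell from 16.4 and 13.3 TPM to 2.24 and 3.96 TPM, and *Tnfrsf19*, which fell from 124 and 138 TPM to 30.5 and 49.7 TPM. Of the 11 gate antigens tested, 2 fell, *Klrb1c* among them.

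Of 7 erythroid markers tested, 2 fell (*Alas2* and *Slc4a1*) and none rose, while the markers summed to 858 and 872 TPM against 910.1 and 1030 TPM. *Alas2*, the erythroid enzyme of haem synthesis, stood at 64.2 and 74.1 TPM against 17.2 and 17.3 TPM (log2 difference -1.99, adjusted p = 0.00362), and *Hbb-b2*, a beta globin gene, at 718 and 885 TPM against 151 and 240 TPM (log2 difference -2.07, adjusted p = 0.0054). Both genes were higher in +/+ cells, with 208 and 271 TPM of *Alas2*. In the homozygous ΔCRD1,2 pair, *Alas2* stood at 76.7 and 8.56 TPM, so that these 2 libraries differed several-fold from each other. Haemoglobin genes have near-identical copies that can share reads, and the part of erythroid RNA in these values was not tested.

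Immunoglobulin segments were left out of the 71 genes and were looked at after their values were seen. Of 112 heavy chain variable segments (*Ighv*) tested, 36 fell and none rose, with a median log2 difference of -2.43. Their summed level was 945 and 1025 TPM in ΔCRD1/- and 560 and 495 TPM in ΔCRD1,2/- cells, against 895 and 1080 TPM in +/+ cells. In *Pax5* Δ/Δ progenitors it was 594 and 583 TPM. Light chain transcripts had the other sign in the hemizygous libraries. The kappa constant region *Igkc* stood at 183 and 252 TPM against 460 and 612 TPM and did not pass the test. It was at 159 and 559 TPM in +/+ cells, and at 1856 and 903 TPM in homozygous ΔCRD1 against 1107 and 816 TPM in homozygous ΔCRD1,2 cells. In the hemizygous libraries the summed kappa variable segments stood at 190 and 155 TPM against 421 and 304 TPM, with none of 61 past the test. The summed lambda constant segments stood at 76.5 and 68.6 TPM against 382 and 557 TPM, with 2 of 3 higher. The T cell receptor beta entries, from the same kind of locus, summed to 5.09 and 1.4 TPM against 64.3 and 25.9 TPM, and 1 of 8 passed, the *TCRB_Cb2* entry, at 1.78 and 1.4 TPM against 12.4 and 8.16 TPM. Segments of a family are near-identical in sequence, so the share of reads given to each one is uncertain.

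CRD2 was also removed in cells that keep CRD1, and the difference between ΔCRD1,2/- and ΔCRD1/- was set against that between ΔCRD2/- and +/+ in the 8 libraries of the 100-nt run. The Ly6D gate was used for ΔCRD1,2/- cells alone, so this test contains gate and genotype together. The +/+ cells have both *Pax5* copies and the mutants a single one, so the difference between ΔCRD2/- and +/+ also contains copy number. Of the 12332 genes, 108 (0.876%) passed for this difference of differences, 22 above 0 (0.178%) and 86 below 0 (0.697%). Among the 71 genes above, 35 passed it, 27 lower genes below 0 and 8 higher genes above 0. These 71 genes were chosen on a difference that is itself part of this test, in the same libraries. Their overlap with the 108 and its signs are thus partly set by that choice. The count was 0 without either ΔCRD1/- library, where 1047 and 916 genes had an unadjusted p below 0.05. It was 33 in the 6 libraries left without ΔCRD2/- replicate 1 and +/+ replicate 4, a choice made after the granulocyte markers were seen. Leaving out replicates 3 and 4 of +/+ gave 38 and 203, replicates 1 and 2 of ΔCRD2/- gave 60 and 23, and replicate 1 of ΔCRD1,2/- gave 37.

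*Cnn1* was at 25.0 and 26.6 TPM in ΔCRD2/- cells against 24.1 and 19.7 TPM in +/+ cells, and its difference of differences was -4.03 (log2 scale, adjusted p = 0.00225). *Atp1b1* was at 327 and 355 TPM against 274 and 306 TPM in the same groups, with a difference of differences of -2.75 (adjusted p = 0.00225). In both genes the ΔCRD2/- libraries lay close to the +/+ libraries.

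Other genes were higher in ΔCRD2/- than in +/+ cells and lower in ΔCRD1,2/- than in ΔCRD1/- cells. *Maf* was at 17.2 and 17.4 TPM in ΔCRD2/- against 6.70 and 9.07 TPM in +/+ cells, a difference of differences of -3.91 (adjusted p = 0.00254). *Steap4* was at 116 and 115 TPM against 65.9 and 84.2 TPM, with -3.13 ± 0.28 (adjusted p = 0.00295). *Trf*, which encodes transferrin, stood at 222 and 199 TPM in +/+, 495 and 620 TPM in ΔCRD2/-, 980 and 930 TPM in ΔCRD1/- and 405 and 434 TPM in ΔCRD1,2/- cells, with -2.59. *Fcrl6*, an Fc receptor-like gene, stood at 55.7 and 59.9, 74.8 and 85.1, 91.7 and 88.1 and 26.3 and 25.9 TPM in the same order, with -2.25. *Trf* was higher in each single mutant than in +/+ cells, and its double mutant level lay between the +/+ and the ΔCRD2/- levels.

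*Tmem108*, a transmembrane protein gene, was the only one of the 7 genes named for this test with a value above 0. It was at 45.9 and 45.6 TPM in +/+, 26 and 25.7 TPM in ΔCRD2/-, 27.3 and 27 TPM in ΔCRD1/- and 72.4 and 65.1 TPM in ΔCRD1,2/- cells, with a difference of differences of 2.16. The 2 single mutants were alike and below +/+, and the double mutant was above it. All 7 genes passed in 12 of 14 alternative settings, the 2 exceptions being the fits without 1 of the ΔCRD1/- libraries.

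**Figure D4:**
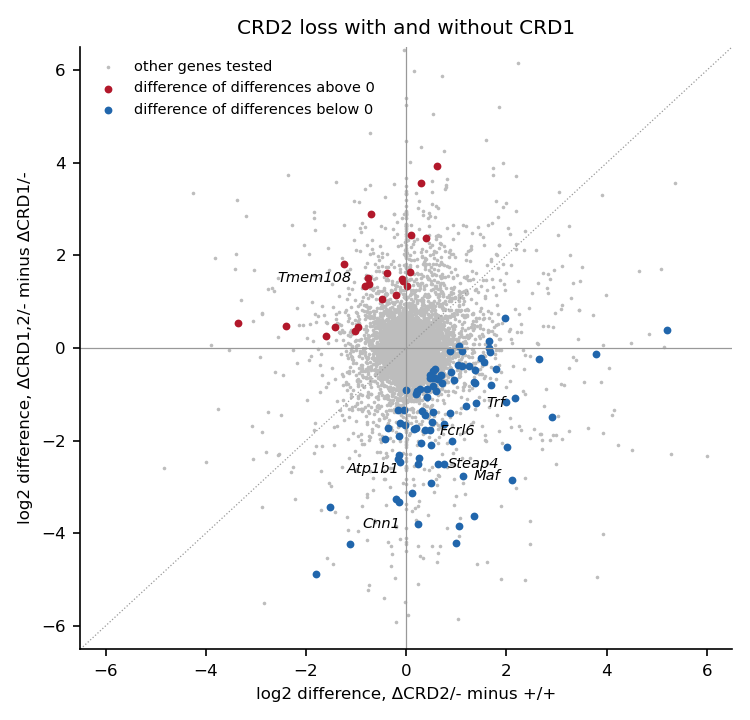
Log2 difference of ΔCRD2/- against +/+ pro-B cells (horizontal) and of ΔCRD1,2/- against ΔCRD1/- pro-B cells (vertical) for each gene, 2 libraries per genotype, with the 108 genes whose 2 differences differ past the test coloured. The dotted line marks equal differences, and *Cnn1* and *Atp1b1* lie near 0 on the horizontal axis and below -2 on the vertical one.

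The homozygous libraries share no sample with the 4 hemizygous ones and gave the same contrast in cells with 2 altered alleles. The fit also held those 4 hemizygous libraries, so its estimate of the spread and its adjusted p are not independent of them. Here 137 genes (1.11%) passed an adjusted p below 0.05, a fold above 2 and an average over 5 TPM, 36 higher (0.292%) and 101 lower (0.819%), with read length as a term because the 2 homozygous genotypes were read at 50 and 100 nt. That term is estimated from the +/+ libraries alone, 3 at 50 nt and 2 at 100 nt, and without it the count was 493. The count was 51 and 47 without replicates 1 and 2 of homozygous ΔCRD1 and 85 and 59 without those of homozygous ΔCRD1,2. Of the 71 hemizygous genes, 67 had the same fitted direction in the homozygous libraries (21 of 23 higher and 46 of 48 lower), beside 61.4% of all genes tested. The adjusted p alone was passed by 1.62% of all genes. Past it in the same direction were 7 of the 23 higher genes, against a background of 0.446%, and 29 of the 48 lower genes, against 1.18%. The 35 genes past all thresholds in both were 49.3% of the hemizygous and 25.5% of the homozygous list.

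The 23 higher genes had a median log2 difference of 2.41 in hemizygous and 1.47 in homozygous libraries, and the 48 lower genes of -2.09 and -1.81. Across the 71 genes the 2 differences had a Pearson r of 0.860, and across all genes tested of 0.422; genes are not independent replicates and the 71 were chosen on 1 axis. *Gpr25* stood at 9.56 and 7.31 against 63.7 and 72.3 TPM, *Ifitm1* at 25.7 and 26.4 against 165 and 180 TPM, and *Lat2* at 18.8 and 17.0 against 69.9 and 72.9 TPM. Each of these 3 genes passed with the same direction in both. The 4 genes whose fitted homozygous difference had the other sign were *Mir7027*, *Prg3*, *Thy1* and *Trib2*, none past the test (adjusted p = 0.752 to 0.937). This sign depends on the read length term. In TPM, *Trib2* stood at 8.02 and 7.59 against 2.66 and 2.04 and *Mir7027* at 17.3 and 16.6 against 6.64 and 5.55, both lower in homozygous ΔCRD1,2 cells, and the libraries of the 2 genotypes overlapped in *Prg3* and *Thy1*. The term also worked the other way. *Cd74* counted as higher, with a fitted difference of 0.49, although its homozygous TPM were lower, at 223 and 121 against 69.2 and 73.8. *H2-Aa*, with a fitted difference of 0.93, overlapped at 13.9 and 11.1 against 14.6 and 10.5 TPM.

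**Figure D5:**
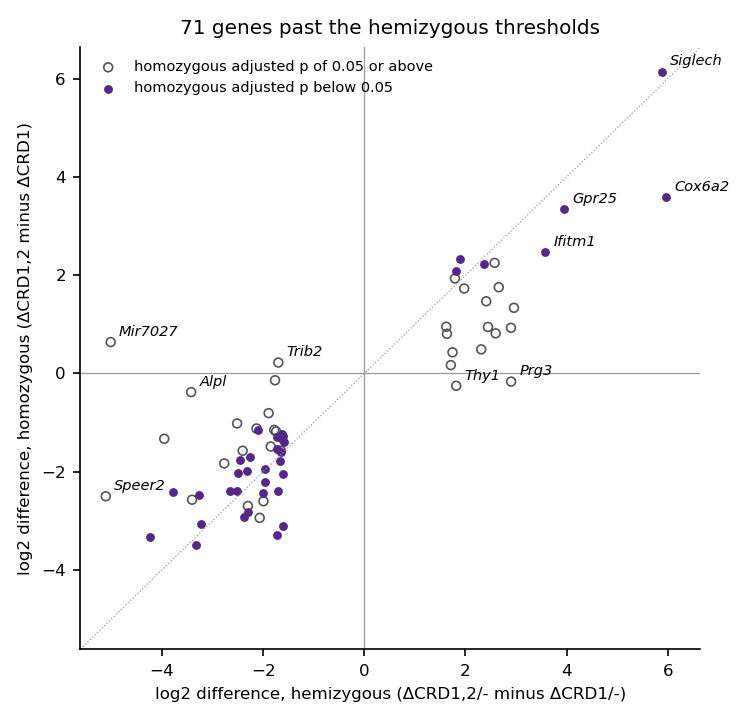
Log2 difference of ΔCRD1,2 against ΔCRD1 cells in hemizygous (horizontal) and homozygous libraries (vertical) for the 71 genes past the hemizygous thresholds, filled where the homozygous adjusted p was below 0.05. Most points lie in the same quadrant, and *Alpl* lies near 0 on the vertical axis.

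The difference between the hemizygous and the homozygous contrast was itself tested in 13 libraries. The test called 4 genes (0.0324%), 1 above (0.00811%) and 3 below 0 (0.0243%), and 2 when homozygous ΔCRD1 replicate 2, ΔCRD1/- replicate 2 or homozygous ΔCRD1,2 replicate 1 was left out. In the 8 mutant libraries alone, without the read length term, it called 53, of which 32 were above and 21 below 0. For *Alpl* the hemizygous fall described above had no counterpart of that size in homozygous cells, with 73.8 and 75.4 TPM in ΔCRD1 and 61.2 and 61.9 TPM in ΔCRD1,2 cells. The difference of its differences was -3.04 ± 0.30 (adjusted p = 0.00799), and it passed in 15 of 15 alternative settings. *Cd9*, a tetraspanin gene, rose in the hemizygous comparison from 9.08 and 12.8 TPM to 29.7 and 19.9 TPM and stood at 24.9 and 22.6 against 14.2 and 12.5 TPM in the homozygous one, with a value of 2.51 ± 0.34 (adjusted p = 0.0359). It passed in 3 of 15 settings. The other 2 calls were the microRNA entries *Mir6935* and *Mirlet7i*, both below 8 TPM in these 8 libraries.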

How the data were processed

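The authors sequenced poly(A)-selected RNA of sorted pro-B cells, trimmed reads to 50 bases, aligned them to GRCm38 with STAR 2.4.2a and counted them per RefSeq gene with Rsubread. They deposited TPM values for every library, and the deposited count column of +/+ replicate 3 holds raw counts. The build, STAR, SAMtools 1.9, TopHat 1.4.1 and Bowtie 1.0.0 are named in the submitters' processing notes, the last 3 with no role given for these libraries. Whether counting used strand is not given in the sources used here.

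From these tables, log2(TPM + 0.1) was fitted with limma 3.58.1 (R 4.3.3) using a mean-dependent trend. All differences carry this pseudocount of 0.1 TPM, which shrinks the fold of weakly expressed genes. The first fit held the 8 libraries of the 100-nt run in 4 genotype groups, the homozygous fit 13 libraries with read length as a term, and both differences of differences were coefficients of such fits. Adjusted p are Benjamini-Hochberg values over all 12332 genes described. Immunoglobulin and histone genes stayed in the fit and were left out of the counts past all thresholds. The authors' TPM steps gave whole reads for all genes with an implied length (14859 genes, tolerance 0.1 read), and 324 genes tested had none. Depth of the 17 libraries was 10013481 to 40685256 reads. edgeR 4.0.16 and DESeq2 1.42.0 were run on these reads as alternatives only, and limma's fits were checked on simulated data. The simulated data gave each gene the same spread in all genotypes and changed only genes with higher read counts. They do not cover the unequal spread of the replicates or genes of few reads. Intervals of read ratios are exact binomial at 95%, and cover counting error only.

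The text names the 14 genes with the largest fold in each direction past all thresholds, Pax5, members of the lists past the adjusted p or, where none passed, the most abundant member, and up to 8 genes with the smallest p past the threshold and a mean above 5 TPM in each test of a difference of differences. Receptor, histone, predicted and microRNA genes were not named by the first rule, and at most 6 genes per list. Some results are not reported here. Other genes were named after their values were seen. The genes, lists and markers were chosen with earlier results of these data known. The labels do not say that replicates came from separate animals, so p-values measure only the spread between these samples. Gene coordinates are from GENCODE M21, and exon positions and the wild-type sequence from RefSeq on GRCm38.p6. The guides and the repair template are the study's designed sequences, matched to that genome on both strands. For sgRNA-4 and sgRNA-5 the strand with an NGG PAM is printed.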

Additional observations from a re-analysis of the deposited data

Results flagged for a closer look

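Each of the following 9 values is a test of the difference between 2 groups' effects under the same contrast, and each passed it. In 7 genes the difference between ΔCRD1,2/- and ΔCRD1/- cells was unlike that between ΔCRD2/- and +/+ cells, on the log2 scale. The values were -2.75 for *Atp1b1*, -4.03 for *Cnn1*, -2.25 for *Fcrl6*, -2.59 for *Trf*, 2.16 for *Tmem108*, -3.91 for *Maf* and -3.13 for *Steap4*. In 2 genes the effect differed between hemizygous and homozygous cells, by -3.04 for *Alpl* and by 2.51 for *Cd9*. The Ly6D gate of the ΔCRD1,2/- cells runs with the first 7 values and cannot be told apart from genotype. Those 7 values also contain the step from both *Pax5* copies in +/+ cells to a single one in the mutants.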

How the results depend on the processing

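The contrast of ΔCRD1,2/- with ΔCRD1/- cells gave 55 to 96 genes under the alternatives that kept all its libraries (71 as reported) and 11 to 62 when 1 of its libraries was left out, where the lone library is assumed to vary like the other groups. The 6 libraries without ΔCRD2/- replicate 1 and +/+ replicate 4 gave 88. List members past the test (40 as reported) numbered 25 with no filter on low values, 22 without the trend, 67 with a replicate block, 83 with DESeq2 and 1 to 22 with 1 library left out. The difference of differences for CRD2 (108) gave 66 with no filter, 70 without the trend, 33 in the 6 libraries without the granulocyte-rich ones and 0 to 203 with 1 library left out. The homozygous count (137) was 493 without the read length term and 47 to 85 with 1 library left out. The test between hemizygous and homozygous cells (4) called 1 with a pseudocount of 1, 7 with no filter, 1 without the read length term, 53 in the 8 mutant libraries alone and 2 to 5 with 1 library left out. Apart from the filter and the libraries left out, the cause of these changes was not tested.

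Direction reversed in 3 genes, none past the test as reported: Pax5 at -0.047 to 0.345 and *Tkt* at -0.093 to 0.296 with 1 library left out (the lowest without ΔCRD1,2/- replicate 2), and *Il17ra* at 0.068 with median-centred libraries, 0.060 with edgeR, 0.050 with DESeq2 and -0.090 to 0.022 with 1 library left out. Of the 67 named genes, 8 passed in every setting run for the direct comparison, among them *Sertad4*, *Cnn1*, *Alpl*, *Mmrn1*, *Atp1b1*, *Myl4* and *Fcrl6*. The calls held in 7 of 16 settings for *Blnk* and *Foxo1*, in 6 for *Cd9* and *Siglech* and in 3 for *Snord99*. Equal replicate numbers did not pair the samples in all genotypes (correlations of deviations 0.089, 0.097 and -0.034). With the replicate number as a block in the 6 mutant libraries, 86 genes passed, and the same libraries without the block gave 69. With 2 libraries per genotype, a gene below the threshold is not shown to be unchanged.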

Other observations

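A few metabolic and transport genes outside the lists also passed all thresholds and were picked after their values were seen. *Fbp1*, the gluconeogenic fructose bisphosphatase, stood at 12.5 and 18.5 TPM in ΔCRD1/- and at 3.43 and 4.00 TPM in ΔCRD1,2/- cells (log2 difference -2.01, adjusted p = 0.00529). *Irs2*, the insulin receptor substrate, stood at 17.4 and 19.5 against 5.03 and 7.27 TPM, and *Ptgs1*, the cyclooxygenase COX-1, at 15.9 and 13.6 against 4.66 and 4.68 TPM. *Cdc25b*, a cell cycle phosphatase, stood at 127 and 150 against 31.7 and 39.0 TPM, with 643 and 694 TPM in +/+ cells. *Cplx2*, a complexin of vesicle release, stood at 522 and 560 against 129 and 164 TPM, with 676 and 649 TPM in +/+ cells.

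The imprinted non-coding RNA *H19* also fell, but from a ΔCRD1/- level far above that of +/+ cells. It stood at 1.72 and 0.767 TPM in +/+, 4.73 and 5.18 TPM in ΔCRD2/-, 78.1 and 61.9 TPM in ΔCRD1/- and 15.5 and 16.1 TPM in ΔCRD1,2/- cells, so that its high level in ΔCRD1/- cells was reduced but stayed above +/+ in the double mutant (log2 difference -2.13, adjusted p = 0.0168).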
